A study of Mnemiopsis leidyi with 31 samples.

Results

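Embryos of the comb jelly Mnemiopsis leidyi at 2, 3 and 4 hours post fertilization (hpf) were compared between 2 runs of libraries, 2013_3 and 2013_2, named by the first digits of the code in each library's label. The comparison took 6 of the 31 libraries of an hourly time course from 1 to 9 hpf, chosen by code and hour: 2013_32, 2013_33 and 2013_34 against 2013_22, 2013_23 and 2013_24, where the last digit is the hour. All 6 were poly(A)-selected RNA from pooled embryos, 100 to 200 per stage, whose parents were collected from the sea, with no treatment or genotype named. The 8 libraries of 2013_2, 1 at each hour from 1 to 8 hpf, served as a course on which other libraries could be placed. The 8 libraries of 2013_1 and 2013_4, which belong to neither run compared, were used to choose lists of transcripts. A run here means only libraries whose codes share their first digits, and the word names no sequencing run. The labels do not say what a code stands for, so the parents, the day, the collection and the library preparation of a run cannot be told apart. For 1 of the 6, the 3 hpf library of 2013_2, the title and the description give different codes, and the description, which names the column of counts, was used.

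Early animal embryos divide on RNA and protein that the mother stored in the egg. Stored messages are then cleared while the embryo's own genes are switched on, a handover called the maternal-to-zygotic transition. A rising transcript is thus often read as embryonic transcription and a falling one as the loss of stored RNA. The RNA here was poly(A)-selected and its levels are relative, and neither reading was tested. Ctenophore embryos cleave in a fixed, stereotyped pattern and gastrulate within hours of fertilization. The 31067 transcript records carry numbered identifiers only, none of which matched the gene table used here, so transcripts are described by their behaviour and no gene function is given.

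The 6 libraries held 20733492 to 27642120 counts each, and no pair of libraries held the same values. The most abundant record, Mle_005005, picked out after its values were seen, took 1.96%, 2.80% and 2.29% of the counts of 2013_3 at 2, 3 and 4 hpf, and 7.29%, 8.66% and 6.10% of those of 2013_2. Levels below are CPM, counts brought to a common library size, with trimmed mean of M-values (TMM) scaling over the 19 libraries with codes of 2013. The part of this record in the differences below was not tested beyond the choice of scaling.

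At each of the 3 hours the 2013_3 embryos resembled 2013_2 embryos of a later hour. The clock for this placement was 1000 transcripts, the 500 with the clearest rise and the 500 with the clearest fall over the hours of 2013_1 and 2013_4. Those libraries are of 1, 2 and 6 to 9 hpf, with none at 3 or 4 hpf. Each 2013_3 library was set at the point of the 2013_2 course, in steps of 0.05 h, where its clock levels on the log2(CPM + 1) scale were nearest. The 2 hpf library of 2013_3 was placed at 4.25 hpf, the 3 hpf library at 5.3 hpf and the 4 hpf library at 6.3 hpf. They thus lay 2.25, 2.3 and 2.3 h past their labelled hours (2.28 ± 0.0289 h, SD, n = 3), and advanced by 1.05 h and 1 h along the course for each labelled hour. With the whole clock the gap to the label was nearly constant over the 3 hours, to within the step of 0.05 h. This was not general. The gap was 2.3, 2.4 and 2.45 h with the rising transcripts alone, and 1.75, 1.4 and 1.25 h with the falling ones.

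The libraries of 2013_2, each placed with its own hour left out of the course, showed how closely such a reading returned the label. Those of 2 to 7 hpf were placed at 2.3, 2.5, 3.85, 4.7, 6.3 and 6.5 hpf, from 0.5 h before to 0.3 h after the label (-0.142 ± 0.367 h, SD, n = 6). Every 2013_3 library lay farther past its label than any of these. The exact permutation test of placed minus labelled hour, 3 libraries against 6, gave a two-sided p of 0.0119, the smallest its 84 regroupings can give. The 6 were placed on the course of their own run, so this test does not measure the spread between runs. On the same course the 6 hpf library of 2013_4 lay 1.4 h past its label and the 7 hpf library of 2013_1 0.4 h past. The other libraries of 2013_1 and 2013_4 were placed at an end of the course. Paired by hour, 2013_3 was placed 1.95, 2.8 and 2.45 h past 2013_2 at 2, 3 and 4 hpf (2.4 ± 0.427 h, SD, n = 3 pairs). The exact sign-flip test over these 3 pairs gave 0.25, the smallest it can give, so that test could not pass a threshold of 0.05. The 3 libraries of a run may share a source, in which case they are not 3 independent readings of its timing.

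**Figure D1:**
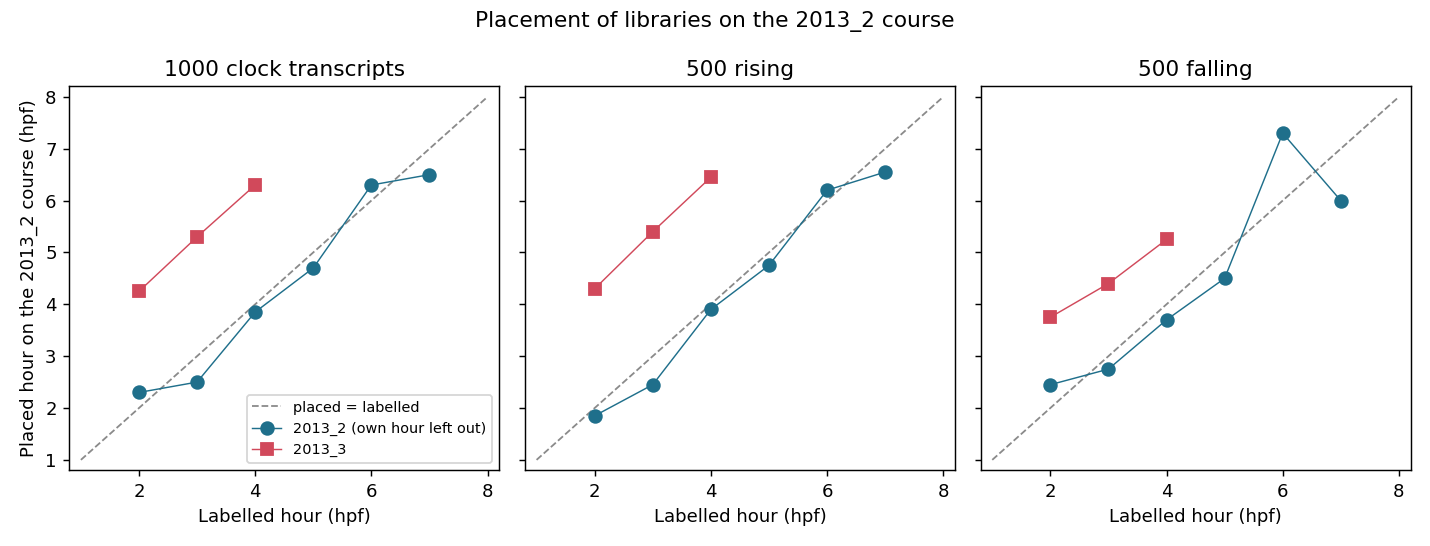
Placed hour on the 2013_2 course (vertical axis, hpf) against labelled hour (horizontal axis, hpf), 1 point per library, for the whole clock and for its rising and falling transcripts alone, with a dashed line where both hours are equal. The 3 libraries of 2013_3 (squares) lie above the line in each panel, at 4.25, 5.3 and 6.3 hpf with the whole clock, while the 2013_2 libraries (circles) lie within 0.5 h of it there.

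The rising transcripts carried the placement. With them alone the 3 libraries of 2013_3 were placed at 4.3, 5.4 and 6.45 hpf, a mean paired offset of 2.65 h (exact permutation p = 0.0119, two-sided, 3 libraries against 6). With the falling transcripts alone they were placed at 3.75, 4.4 and 5.25 hpf, a mean offset of 1.5 h (exact permutation p = 0.0476), and the 2013_2 libraries themselves missed their label by -1 to 1.3 h. The falling reading also turned on the scaling. Its mean offset was 0.85 h with library totals (exact permutation p = 0.333) and -0.45 h with relative log expression (RLE) factors (p = 0.786, exact permutation), whereas the rising offset was 2.68 h and 2.65 h under the same choices. An advance past the threshold was thus measured on rising transcripts under each scaling tried, and on falling ones only under TMM scaling.

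At the placed hour, which is the nearest point by construction, the libraries were still not on the course. The root mean square distance over the clock, on the log2(CPM + 1) scale, was 0.517, 0.591 and 0.687 at the placed hour against 0.697, 0.993 and 1.19 at the labelled hour, for 2, 3 and 4 hpf. The 2013_2 libraries of 2 to 7 hpf lay 0.139 to 0.330 from their own course. Every 2013_3 library was thus farther from the course than any 2013_2 library, also at its best hour. The course of 2013_4, whose libraries helped to choose the clock, is sparser, with none between 2 and 6 hpf. On it 2013_3 was placed at 3.6, 4.3 and 5.2 hpf, all on the straight line across that gap. The 2013_2 libraries of the same hours were placed at 1 hpf, the start of that course, and at 3.15 and 3.55 hpf, a mean offset of 1.8 h. Those of 2013_2 at 5, 6 and 7 hpf were placed at 4.1, 4.9 and 5.2 hpf, each before its label.

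The levels behind the placement showed the same order. The mean of the 500 rising transcripts, on the log2(CPM + 1) scale, was 0.80, 1.24 and 1.82 in 2013_3 at 2, 3 and 4 hpf and 0.50, 0.55 and 0.79 in 2013_2. The lowest 2013_3 library exceeded the highest 2013_2 library, and the difference widened from 0.30 to 0.69 and 1.03. At the placed hours the differences from the course were -0.04, 0.08 and 0.23. Of the 500, 64.8%, 77% and 87% were higher in 2013_3 at the 3 hours, against 46.5%, 44.4% and 37.6% of all tested transcripts.

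The 500 falling transcripts differed far less. Their mean was 6.44, 6.32 and 6.08 in 2013_3 and 6.56, 6.52 and 6.43 in 2013_2, so that 2013_3 was lower by a difference of -0.12, -0.20 and -0.34 at 2, 3 and 4 hpf. The median difference of all tested transcripts was itself -0.04, -0.10 and -0.20 on this scale, which left -0.08, -0.10 and -0.14. The difference from 2013_2 was below 0 at each hour under library totals and RLE factors too, between -0.02 and -0.14, although at 2 hpf with library totals 258 of the 500 were higher in 2013_3 and 241 lower. At the placed hours the falling transcripts lay above the course, by 0.08, 0.21 and 0.05, and this too depended on the scaling, with a difference of -0.14 for the 4 hpf library under RLE factors.

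**Figure D2:**
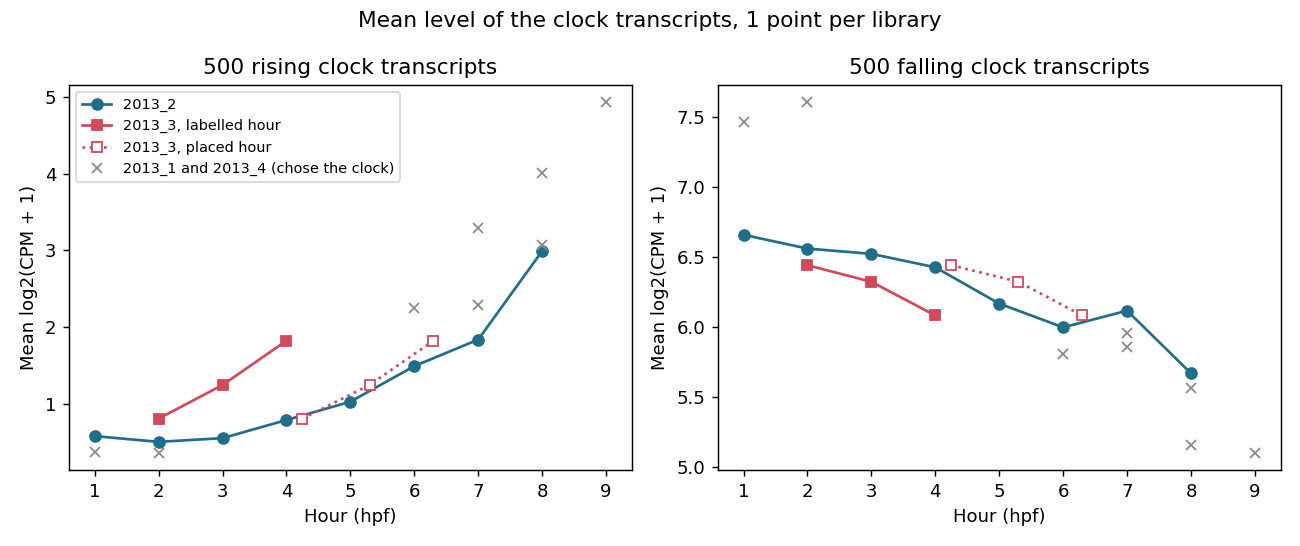
Mean level of the 500 rising and 500 falling clock transcripts (vertical axes, mean log2(CPM + 1)) against hour (hpf), 1 point per library. Filled squares show 2013_3 at its labelled hour, where the rising mean is 0.80, 1.24 and 1.82 against 0.50, 0.55 and 0.79 in 2013_2 (circles), and open squares show it at its placed hour, near the 2013_2 line. Crosses are the libraries of 2013_1 and 2013_4 that chose the clock.

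Late transcripts, which are all but silent at first and abundant near the end of the course, showed a wide difference at each hour. The list held 282 transcripts under 1 CPM in both 2013_4 libraries of 1 and 2 hpf and at 10 CPM or more in the 8 hpf libraries of 2013_1 and 2013_4 and the 9 hpf library of 2013_4. The list and the clock were chosen in the same libraries, and 112 of the 282 were rising clock transcripts. In 2013_3, 176, 236 and 265 of the 282 reached 1 CPM at 2, 3 and 4 hpf. In 2013_2 the counts were 37, 69 and 159 at these hours and 213, 256, 276 and 280 at 5 to 8 hpf. The 2 hpf library of 2013_3 thus held more of them than the 4 hpf library of 2013_2, and under library totals or RLE factors the order was the same, with 176 against 159 and 168 against 145.

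Their levels followed. The median late transcript stood at 1.69, 5.50 and 12.4 CPM in 2013_3 at 2, 3 and 4 hpf, against 0.157, 0.355 and 1.36 CPM in 2013_2. Relative to its level in the 8 hpf library of 2013_2, the median transcript had reached 8.11%, 23.7% and 53.1% in 2013_3 and 0.496%, 1.05% and 4.90% in 2013_2. The lowest median of 2013_3 exceeded the highest of 2013_2 at these hours. At 4 hpf the 2013_3 median lay between those of the 7 and 8 hpf libraries of 2013_2, 10.02 and 24.7 CPM.

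The share of late transcripts present in 2013_3 went down with the hour at which they came up in 2013_2. Of the 77 that reached 1 CPM by 3 hpf in 2013_2, 92.2% had done so in the 2 hpf library of 2013_3. The share there was 88.0% of the 83 that came up at 4 hpf in 2013_2, 47.3% of the 55 that came up at 5 hpf and 7.69% of the 65 that came up at 6 to 8 hpf. By 4 hpf in 2013_3 the last of these shares had grown to 73.8%, and the other 3 to 100%. The remaining 2 of the 282 stayed under 1 CPM in all 8 libraries of 2013_2. By transcript, 209 of the 282 first reached 1 CPM at an earlier labelled hour in 2013_3 than in 2013_2, 3 at the same hour, and 70 later or not at all by 4 hpf. The comparison starts at 2 hpf in 2013_3, and 54 of the 282 already stood at 1 CPM or more in the 1 hpf library of 2013_2, so an earlier hour could not be seen for those.

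**Figure D3:**
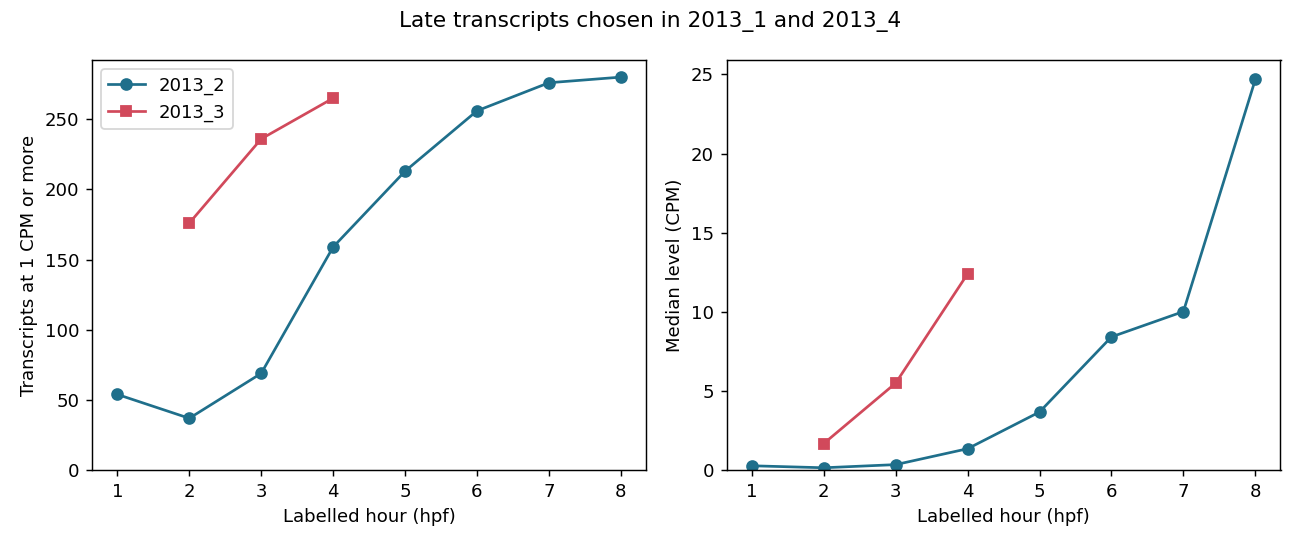
The 282 late transcripts in each library of 2013_2 (circles, 1 to 8 hpf) and 2013_3 (squares, 2 to 4 hpf): the number at 1 CPM or more, and the median level in CPM, against labelled hour. The 2013_3 points, 176, 236 and 265 transcripts, lie above the 2013_2 points of the same hours, 37, 69 and 159.

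Across all transcripts, the 2 runs differed widely at the same hour. In edgeR's quasi-likelihood test with the hour as a block and Benjamini-Hochberg adjustment at 0.05, 2542 of 11742 tested transcripts were higher in 2013_3 (21.6%) and 2366 lower (20.1%). Leaving out either library of 3 hpf took the 4908 calls to 203 (without the 2013_2 library) or 182 (without that of 2013_3), while leaving out any other library left 4038 to 5572. The even split was not general: a fit of hour and run over the 19 libraries of 2013 gave 2018 higher and 372 lower of 18999. These 6 libraries show the spread between pairs of hours only, since neither run has a repeated hour, and what the p-values measure may be technical.

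Most calls among the rising and late transcripts were higher in 2013_3. Of 228 rising clock transcripts tested, 139 were higher in 2013_3 and 10 lower, with a median log2 fold change of 2.34, against 0.02 over all tested transcripts. Of 234 late transcripts tested, 185 were higher and 0 lower in edgeR, with 49 not called and a median of 3.67, and 0 were lower at an unadjusted p of 0.05, in DESeq2 or in limma-voom. Members passed the filter on low counts largely through the run in which they were high, so these shares describe the tested members only. The 498 falling transcripts tested gave 84 higher and 126 lower, a median of -0.05, and with library totals 101 and 111.

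The largest differences were close to presence against absence, at all 3 hours alike. Mle_023243, a record of 752 bases, stood at 49.04, 49.7 and 40.3 CPM in 2013_3 at 2, 3 and 4 hpf and at 0, 0 and 0.0446 CPM in 2013_2. Over the 3 hours this was 3443 counts against 1, a ratio of depth-scaled counts of 2931 with a 95% counting interval of 525.7 to 115808 (edgeR adjusted p = 0.000976). Mle_003872, of 1954 bases, stood at 48.7, 53.0 and 34.1 CPM against 0.0447, 0 and 0 CPM, 3306 counts against 1 and a ratio of 2815 (504.8 to 111201, edgeR adjusted p = 0.000976). The runs did not overlap in either transcript, which follows from picking the largest fold changes.

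In the other direction, Mle_013196, of 1236 bases, was at 0.0482, 0.180 and 0.305 CPM in 2013_3 and at 98.5, 85.7 and 66.8 CPM in 2013_2. Its log2 fold change was -8.53 (SE 0.45, edgeR adjusted p = 0.00146). Mle_024902, of 1321 bases, was at 0.193, 0.584 and 0.336 CPM against 75.8, 61.4 and 53.8 CPM, a log2 fold change of -7.24 (SE 0.36, edgeR adjusted p = 0.00143). Both were near 0 in each 2013_3 library and abundant in each 2013_2 library, and neither came near the 2013_2 level at any of the 3 hours. They too were picked for the largest fold changes.

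To separate tempo from differences that do not move with time, the 11 libraries of both runs were fitted with a smooth curve of the hour, once with labelled hours and once with the placed hours of 2013_3. With labelled hours, 5164 of 13999 transcripts differed between the runs (36.9%), 3013 higher (21.5%) and 2151 lower (15.4%) in 2013_3, by edgeR's quasi-likelihood test at an adjusted p of 0.05. With placed hours, 3075 did (22%), 1666 higher (11.9%) and 1409 lower (10.1%). The split under labelled hours moved with the scaling, from 58.3% higher with TMM to 74.0% with library totals and 64.8% with RLE factors, which shifted the median log2 fold change of all transcripts from 0.04 to 0.17 and 0.13. Of the 4908 transcripts called by hour, 3621 (73.8%) were called with the same sign under labelled hours and 1992 (40.6%) under placed hours.

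The placed hours used the same libraries, so their p-values carry no error of the placement, and the clock transcripts had to come closer. The late transcripts outside the clock did not choose the placement, but they were picked for a like rise in the same libraries as the clock. Their coming closer is thus not a separate check of the placement. Of 169 of them tested, 158 were higher in 2013_3 and 0 lower with labelled hours in edgeR (0 in DESeq2, and 0 and 1 at an unadjusted p of 0.05), and 10 higher and 5 lower with placed hours, while their median log2 difference went from 3.83 to 0.34. Of 499 falling transcripts, 25 were higher and 119 lower with labelled hours, and 78 higher and 48 lower with placed hours. The late transcripts thus lost most of their difference when 2013_3 was read at its placed hours. Beside the falling transcripts, all 11742 transcripts of the comparison by hour gave 1619 higher and 1230 lower with placed hours. With library totals the falling ones were 57 higher and 70 lower with labelled hours and 74 and 32 with placed hours. Without the 3 hpf library of 2013_2 the labelled-hour count was 2732. Without the 3 hpf library of 2013_3 or the 6 hpf library of 2013_2 the placed-hour count was 1725 or 1943.

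Transcripts at least 2-fold apart on the log2(CPM + 1) scale at all 3 hours were then sorted by their place on the course. There were 473 higher in 2013_3 (4.03% of those tested) and 410 lower (3.49%). A transcript was said to fit a shift when it came within 2-fold of the course at the placed hour of all 3 libraries: 168 of the higher and 48 of the lower did. It was said to lie outside the course when all 3 libraries were at least 2-fold above the highest, or below the lowest, of the 8 course libraries: 107 of the higher and 93 of the lower did. The other 198 higher and 269 lower met neither rule. The 48 lower transcripts that fit a shift became 10 with library totals and 13 with RLE factors, against 194 and 195 higher ones under the same scalings.

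**Figure D4:**
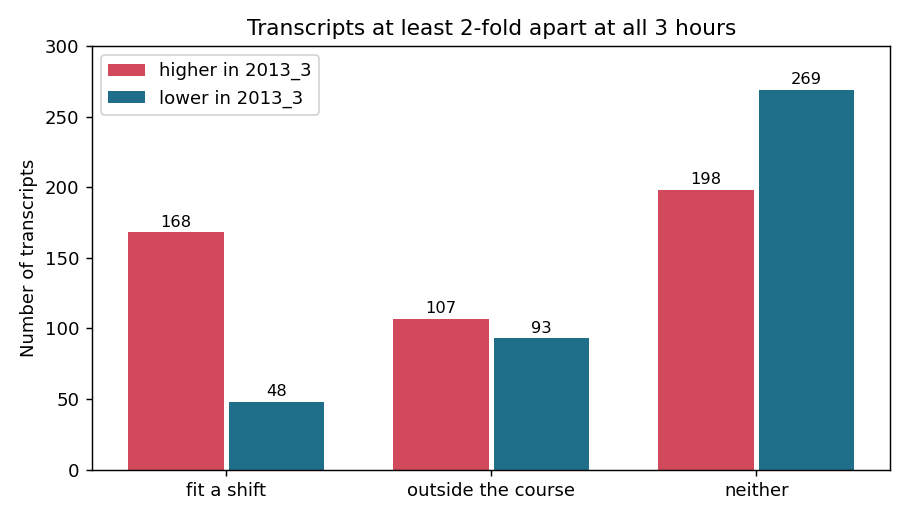
Number of transcripts (vertical axis, from 0) at least 2-fold higher or lower in 2013_3 than in 2013_2 at 2, 3 and 4 hpf, by whether they fit a shift, lie outside the course or meet neither rule. Among those that fit a shift 168 are higher and 48 lower, and outside the course 107 are higher and 93 lower.

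Most of the higher transcripts that fit a shift also rose with time in other libraries. The libraries of 2013_1 and 2013_4 entered the sorting only through the clock behind the placed hours and through the shared TMM scaling. In them 149 of the 168 higher ones rose with the hour and 0 fell (0 at an unadjusted p of 0.05), by edgeR's slope test at an adjusted p of 0.05. Of the 168, 22 were themselves rising clock transcripts. Of the 48 lower ones, 16 fell and 0 rose (1 at an unadjusted p of 0.05). Among the 11635 transcripts of the comparison by hour that entered the slope test, 1936 rose and 1955 fell, and over all 19773 in that test 33.4% rose and 9.93% fell. Rising was not particular to those that fit a shift. Of 197 higher transcripts in the slope test that met neither rule, 129 rose and 5 fell, and that class held 28 rising clock transcripts. Within the 2013_2 course the median range on the log2 scale was 3.99 for the higher ones that fit a shift and 2.15 for the lower. It was 1.23 for all tested, a contrast that the rule itself favours. The higher ones were also longer, with a median of 2882.5 bases against 2031 for all tested transcripts.

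Mle_020005, of 3537 bases, lay nearest to the course at the placed hours among the higher ones that averaged 10 CPM or more on it. It stood at 8.58, 29.9 and 41.9 CPM in 2013_3 at 2, 3 and 4 hpf and at 0, 0.355 and 6.91 CPM in 2013_2, and the course at the placed hours read 9.89, 31.7 and 45.3 CPM. Every 2013_3 library lay above every 2013_2 library of these hours, where the rule had already asked for a 2-fold difference at each hour. It and the 3 transcripts that follow were picked for a small distance at the placed hours, so their placed-hour differences and p-values are a description. The log2 fold change by hour was 4.80 (SE 0.96, edgeR adjusted p = 0.0163), and with placed hours -0.12 (SE 0.40, edgeR adjusted p = 0.860).

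Mle_000393, of 3760 bases, stood at 21.8, 53.9 and 55.4 CPM against 0.716, 1.37 and 14.04 CPM, with 19.01, 50.7 and 60.0 CPM on the course at the placed hours. Its log2 fold change was 4.05 (SE 0.72, edgeR adjusted p = 0.0121) by hour and 0.19 (SE 0.47, edgeR adjusted p = 0.807) with placed hours. Both transcripts rose within 2013_3 as they did within 2013_2, from a higher start. Without a 3 hpf library the edgeR adjusted p by hour was 0.130 or 0.134 for Mle_020005 and 0.0967 or 0.0942 for Mle_000393. With no replicate block it was 0.0790 and 0.0519. Passing the threshold thus depended on the pairing by hour and on having both 3 hpf libraries. Without 1 of these the log2 fold change was still 4.15 or 4.26 for Mle_020005 and 3.38 or 3.41 for Mle_000393. Those fits lost most of their calls over all transcripts too.

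Among the lower ones, Mle_004358, of 2560 bases, stood at 15.9, 15.1 and 10.2 CPM in 2013_3 and at 42.2, 35.97 and 22.9 CPM in 2013_2, with 20.5, 13.6 and 11.8 CPM on the course at the placed hours. Its log2 fold change was -1.13 (SE 0.14, edgeR adjusted p = 0.00536) by hour and -0.24 (edgeR adjusted p = 0.354) with placed hours. Mle_027542, of 1847 bases, stood at 69.5, 66.0 and 46.3 CPM against 153, 140 and 114 CPM, and the course read 108, 77.4 and 54.0 CPM. It was -1.03 by hour (SE 0.07, edgeR adjusted p = 0.00209) and -0.43 with placed hours (SE 0.14, edgeR adjusted p = 0.0525). Both declined within each run, and the runs did not overlap. For Mle_004358, leaving out a 3 hpf library took the edgeR adjusted p to 0.0723 or 0.0690, and the fit of 19 libraries to 0.126.

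Transcripts outside the course had a narrow range within 2013_2. Their median range over the 8 course libraries was 0.53 on the log2 scale for the higher and 0.82 for the lower, below the 1.23 of all tested transcripts, as the rule favours narrow ranges. Over the 3 libraries of 2013_3 the median range was 0.40 for the higher and 0.27 for the lower, against 0.41 for all tested. The median higher one stood at 6.54 CPM in 2013_3 and 0.185 CPM in 2013_2, and the median lower one at 1.76 against 20.6 CPM. In 2013_1 and 2013_4, 20 of the 99 higher ones tested rose with the hour and 8 fell, and 17 of the 91 lower ones rose and 4 fell, beside the 1936 that rose and the 1955 that fell of 11635 in the comparison by hour.

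Mle_021096, of 1717 bases, had the widest gap above the course. It stood at 247, 188 and 190 CPM in 2013_3 and at 0.761, 1.17 and 0.669 CPM in 2013_2, and the 8 course libraries never passed 1.19 CPM. It was picked for its gap to every course library, so a difference at any placed hour was fixed by that choice. Its fold changes and p-values are thus a description. The log2 fold change was 8.05 by hour (SE 0.21, edgeR adjusted p = 0.000756) and 7.69 with placed hours (edgeR adjusted p = 3.28e-08). Other runs lay between, at 30.1 and 26.1 CPM in 2013_1 and 1.84 to 9.24 CPM in 2013_4. Mle_023243, described above, had the next widest gap among the higher ones, and the other runs fell on both sides, with 10.1 to 35.8 CPM in 2013_4 and 0 in both 2013_1 libraries.

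Mle_013196 and Mle_024902 had the widest gaps below. On the course Mle_013196 ranged from 36.9 to 111 CPM, and it stood at 5.16 to 22.3 CPM in 2013_4 and at 20.2 and 16.6 CPM in 2013_1. Mle_024902 ranged from 37.3 to 98.8 CPM on the course, and stood at 0 to 3.38 CPM in 2013_4 and at 0.569 and 1.10 CPM in 2013_1. For this transcript it was 2013_2 that stood apart from the other runs. For Mle_021096, 2013_3 stood above and 2013_2 below every library of 2013_1 and 2013_4.

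**Figure D5:**
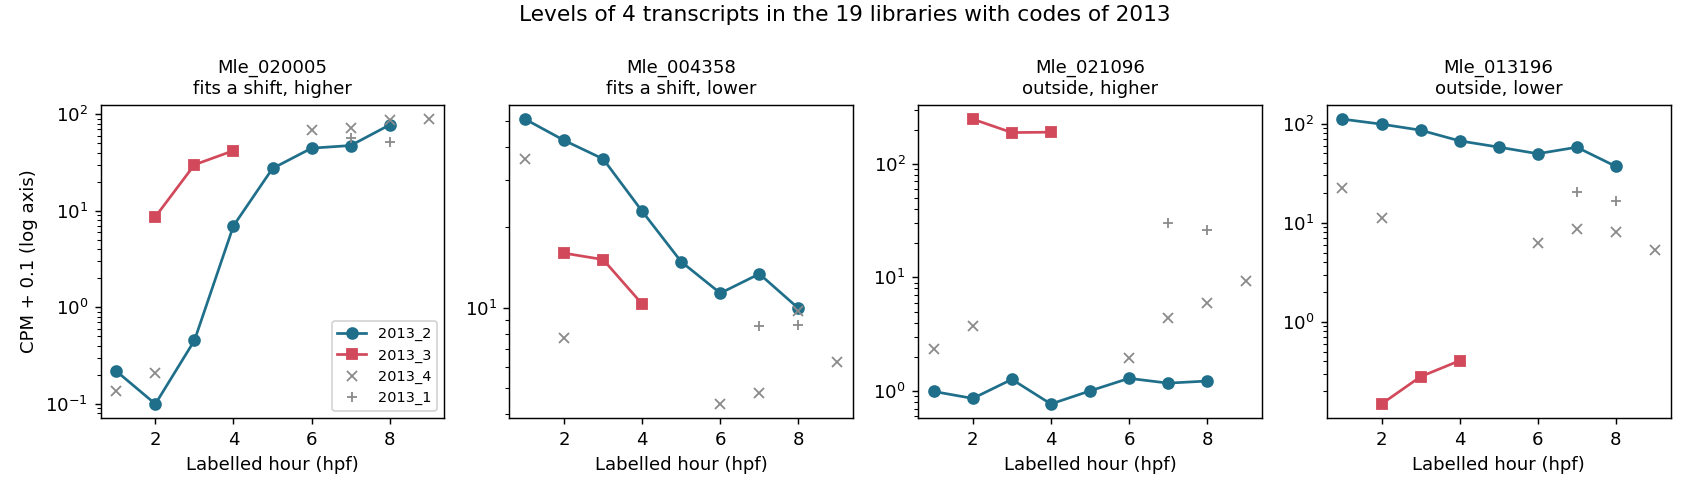
Levels of 4 transcripts (CPM + 0.1, log axis) against labelled hour in the 19 libraries with codes of 2013. Mle_020005 and Mle_004358 fit a shift, with the 2013_3 points (squares) ahead of a moving 2013_2 line (circles), while Mle_021096 and Mle_013196 lie outside that line at all 3 hours.

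The transcripts outside the course did not divide the other runs cleanly. Of the 107 higher ones, 36 were nearer to 2013_3 and 67 nearer to 2013_2 in both libraries of 2013_1. In all 6 libraries of 2013_4, 15 were nearer to 2013_3 and 48 nearer to 2013_2. Of the 93 lower ones, 50 were nearer to 2013_3 and 37 nearer to 2013_2 in both 2013_1 libraries, and 33 and 17 in all 6 of 2013_4. Set against all other 2013 libraries instead of the course, 50 transcripts still lay outside at all 3 hours, 38 higher and 12 lower in 2013_3.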

How the data were processed

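The authors deposited whole-number read counts per transcript record, with record lengths of 300 to 29348 bases (median 1078). Per the submitters' processing notes, the tools were Bowtie2 and SAMtools. Which reference was used and how reads were counted is not given in the sources used here. Counts of near-identical records are uncertain for that reason. The members of the comparison and the lists were chosen with earlier results of these data known. Counts were tested in edgeR 4.0.16 (R 4.3.3) with TMM factors, filterByExpr and Benjamini-Hochberg adjustment at 0.05. The hour block pairs libraries by their labelled hour. Deviations from run means correlated at 0.0569, 0.0828 and 0.249 within the 3 pairs. The course joined neighbouring hours by straight lines. The 11-library fits used a natural spline of 3 degrees of freedom. Named transcripts average at least 10 CPM and had the largest fold change past the threshold, the smallest distance to the course at the placed hour, or the widest gap outside it, at most 2 higher and 2 lower each. Alternatives included DESeq2 1.42.0 and limma 3.58.1. The fit and the placement were first tested on simulated data. Counting intervals cover counting error only.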

Additional observations from a re-analysis of the deposited data

How the results depend on the processing

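The placement offset of 2.4 h ranged from 1.5 to 2.82 h over the other clocks, courses, scalings and left-out libraries tried, except for the falling clock with library totals (0.85 h) and with RLE factors (-0.45 h), both chosen after seeing the data. The comparison by hour, 4908 calls, gave 4808 with no replicate block, 4896 with RLE factors, 4837 with library totals, 5333 in DESeq2, 5447 in limma-voom and 2390 in a fit of the 19 libraries of 2013. Leaving out 1 library gave 182 to 5572 calls there, 2732 to 6004 with labelled hours and 1725 to 3446 with placed hours. The 216 transcripts that fit a shift became 70 at a 4-fold threshold, 376 with a pseudocount of 0.1 and 68 when placed by the falling clock. The 200 outside the course became 457 at a log2 difference of 0.5, 54 at 2, 338 with a pseudocount of 0.1 and 50 against all other 2013 libraries. The cause of these changes was not tested. The named transcripts kept their sign in all 117 combinations with an alternative and missed the threshold in 9. Depth limits transcripts near 3 counts a run.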

Other observations

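The 12 libraries with codes of 2012 gave levels between the 2 runs for several of the transcripts that differed most, here scaled over all 31 libraries. Mle_021096 stood at 2.99 to 24.3 CPM there, with a median of 11.9 CPM. Mle_023243 stood at 0.101 to 24.6 CPM, and Mle_024902 at 0.507 to 5.12 CPM, near the level of 2013_3. Mle_003872, at 1.09 CPM or less in every library of 2013_1, 2013_2 and 2013_4, stood at 8.75 to 46.2 CPM in the libraries of 2012, which reach the 34.1 to 53.0 CPM of 2013_3. The higher transcripts named as fitting a shift did not rise steadily with the labelled hour in the libraries of 2012. In the N libraries of 1, 2, 3, 4 and 5 hpf, Mle_020005 stood at 42.1, 54.5, 0.849, 23.9 and 1.17 CPM. Mle_000393 stood at 62.6, 31.2, 1.24, 41.5 and 2.09 CPM there.

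The other libraries of 2013 were placed on the 2013_2 course at varied distances from their labels. The 1 and 2 hpf libraries of 2013_4 were both placed at 1 hpf, the start of the course. Its 6 hpf library and the 7 hpf library of 2013_1 were placed at 7.4 hpf, the latter 0.4 h past its label and within the 0.5 h by which 2013_2 libraries missed theirs. The 7, 8 and 9 hpf libraries of 2013_4 and the 8 hpf library of 2013_1 were placed at 8 hpf, the end of the course. These libraries helped to choose the clock, so the values are a description.

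Record length differed between some classes. With tested transcripts cut into 4 equal bins of record length, the longest bin held 75 of the 168 higher ones that fit a shift and 2 of the 48 lower ones, while the shortest bin held 20 of each. Outside the course the higher ones numbered 46, 28, 17 and 16 from the shortest bin to the longest, and the lower ones were spread evenly, at 25, 18, 25 and 25. Over all tested transcripts the median log2 fold change by length bin, shortest first, was -0.05, 0.04, 0.05 and 0.02.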
